A study of Mus musculus with 8 samples.

Results

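The genes described here belong to families of protease inhibitors, most of which block proteases that cut the matrix of the vessel wall. Serpinf1 has the fold of its family without the inhibition, and it is counted among the inhibitor genes by family. They were chosen by name: the serpins Serpina3n, Serpine2 and Serpinf1, the tissue inhibitors of metalloproteinases Timp1, Timp2, Timp3 and Timp4, the membrane-anchored inhibitor Reck, and A2m. A gene counted as measured where a row of the deposited table carried its symbol and no other. By that rule 8 of the 9 genes were found among 22180 genes in all, each with 1 row, and Serpine2 was not analysed here. The set was drawn up with earlier results of these arrays known, in which Serpina3n stood among the genes changed most over both segments, so tests of the knockout effect are given here to describe the genes and support nothing by themselves.

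RNA came from aortas of newborn mice (postnatal day 0) of strain C57BL/6, either wild-type or fibulin-4 knockout. Fibulin-4 is a matrix protein needed for the assembly of elastic fibres, and the knockout pups lack its gene. Ascending aorta was the stretch between the aortic valve and the ductus arteriosus, and descending aorta that between the vena cava and the diaphragm. Tissue of 8 pups was pooled per array, and 2 biological replicates per genotype and segment gave 8 arrays in 4 groups. Whether pools of the 2 segments came from the same pups is not given. Values are deposited log2 signals after RMA, so a difference of 1 is a doubling of signal, and signals of different genes are not compared as amounts of RNA. A gene was called changed at an adjusted p under 0.05, with limma fitted to all 22180 genes and Benjamini-Hochberg adjustment over them.

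Serpins present a loop as bait: a serine protease that cuts it stays bound to the inhibitor and is lost. TIMPs plug the zinc-containing active site of matrix metalloproteinases, and Timp3, which stays bound to the matrix, also blocks several proteases of the ADAM and ADAMTS families. Reck holds back metalloproteinases at the cell surface, and A2m closes around proteases of many classes, which are then taken up by the receptor Lrp1. In the aortic wall these inhibitors limit the cutting of elastin and collagen.

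The RefSeq start regions of Serpina3n and Timp1, the genes with the largest log2 changes, are shown as background to the values that follow. Each runs from 250 bases before to 50 bases after the annotated start in build GRCm38.p6 and is written 5′ to 3′ along the gene. The region of Serpina3n is chr12:104406458-104406757 on the plus strand and that of Timp1 is chrX:20869916-20870215 on the plus strand.
Serpina3n: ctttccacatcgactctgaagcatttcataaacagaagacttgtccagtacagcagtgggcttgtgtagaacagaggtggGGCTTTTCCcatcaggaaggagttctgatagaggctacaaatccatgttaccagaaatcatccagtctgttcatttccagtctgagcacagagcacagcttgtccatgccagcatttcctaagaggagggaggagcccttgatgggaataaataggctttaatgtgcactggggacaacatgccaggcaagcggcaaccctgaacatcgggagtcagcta
Timp1: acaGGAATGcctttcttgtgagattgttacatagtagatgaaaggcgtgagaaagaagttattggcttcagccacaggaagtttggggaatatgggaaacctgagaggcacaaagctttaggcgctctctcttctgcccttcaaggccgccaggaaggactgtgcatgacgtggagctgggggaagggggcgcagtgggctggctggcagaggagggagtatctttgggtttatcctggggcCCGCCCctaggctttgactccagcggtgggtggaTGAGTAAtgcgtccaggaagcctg

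Capitals mark matches to 6 short motifs searched on both strands. The single match in Serpina3n, starting 170 bases before the start, was to the NF-kB core GGNNTTTCC, which 5.82% of all 32851 promoters of the same length in that table held. In Timp1 the AP-1-like element TGAGTAA matched at base 27 after the start, a motif found in 2.68% of promoters. Its letters are those of an element of Timp1 itself, so this match was fixed in advance and only marks its place. A match to the TEAD motif GGAATG lay 247 bases before the start of Timp1 (14.7% of promoters). A match to the SP1 motif GGGCGG on the reverse strand lay 8 bases before it (35.7% of promoters). The AP-1 consensus TGANTCA (7.81% of promoters) and the STAT motif TTCNNNGAA (8.3%) matched in neither. The start regions of Timp4 and Serpinf1 matched none of the 6 motifs. Those of Timp2 and Timp3 held SP1 matches, and Reck held SP1 matches and a TEAD match. No start region was listed for A2m. A match describes letters in this window, and binding was not measured.

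All 7 smooth muscle markers and all 6 fibroblast markers had a mean log2 signal over the arrays of at least 7.67 and 7.58. The mean of the smooth muscle markers lay between 9.21 and 9.83 on the 8 arrays. Markers of other tissues were also present, and their values stand beside the inhibitors they moved with. Both wild-type replicate 2 arrays had narrower value distributions than the others, with an interquartile range of 1.80 and 1.74 against 2.14 to 2.28. What their joint omission did is given for some of the genes below. Over all genes the standard error of a change had a median of 0.30 within a segment and of 0.21 over both, and the 2 arrays per group limit the precision. Fibulin-4 itself was not analysed here and the genotype of each array rests on its label.

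Serpina3n, an inhibitor of leukocyte serine proteases and a protein of the acute phase response, rose in the knockout. Its log2 signal was 7.03 and 6.58 on the wild-type ascending arrays and 8.77 and 8.996 on the knockout ascending arrays. In the descending aorta it was 6.79 and 7.19 in wild-type and 9.15 and 9.70 in the knockout. All 4 knockout arrays lay above all 4 wild-type arrays, as for 3 of the 8 genes and 4.76% of all genes, and the gap between the highest wild-type and the lowest knockout array was wider than the whole spread within either genotype. The change averaged over both segments was 2.26 (SE 0.21), or 4.79-fold, with a limma adjusted p of 0.0144. It was the 1 gene of the 8 called over both segments, where 0.0721% of all genes were called.

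Within a segment the change of Serpina3n was 2.08 (SE 0.30) in the ascending and 2.44 (SE 0.30) in the descending aorta, or 4.23-fold and 5.42-fold. Only 1 gene of the table rose by more than Serpina3n in the descending aorta. The limma adjusted p was 0.103 in each segment, so neither was called alone. The ascending change was smaller than the descending one by a difference of -0.36 (95% confidence interval -1.31 to 0.60). With 1 array left out this difference ranged from -0.63 without knockout descending replicate 1 to -0.08 without knockout descending replicate 2. It was also moved by leaving out each wild-type array: -0.13 and -0.58 for ascending replicates 1 and 2, and -0.16 and -0.55 for descending replicates 1 and 2. The order of the segments was therefore not resolved.

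The size of the averaged change of Serpina3n was between 2.12 and 2.39 whichever array was left out, but the call was not kept in 5 of those 8 fits. The adjusted p was 0.0728 when wild-type descending replicate 1 was omitted. For the knockout ascending arrays it was 0.107 with replicate 1 left out and 0.126 with replicate 2 left out. For the knockout descending arrays it was 0.0557 with replicate 1 left out and 0.141 with replicate 2 left out. The call also ended when all 41345 rows of the table were tested (0.233), and it held without both narrow wild-type arrays (0.0359).

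Serpina3n belongs to a cluster of near-identical genes, so cross-hybridisation of probes between copies is possible and was not tested. Of the other genes of that cluster, Serpina3a, Serpina3b, Serpina3i and Serpina3j were measured. Their averaged changes were -0.34 (SE 0.18), -0.10 (SE 0.26), -0.14 (SE 0.28) and -0.44 (SE 0.18), at mean log2 signals of 3.78, 3.08, 2.83 and 3.47, and none was called.

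Serpinf1, or pigment epithelium-derived factor, is the serpin without protease inhibition and is known for restraining vessel growth. Its log2 signal was 6.70 and 6.62 in wild-type ascending, 7.18 and 7.11 in knockout ascending, 7.36 and 7.30 in wild-type descending and 7.61 and 7.65 in knockout descending aorta. The replicates agreed closely, with a standard deviation between 0.03 and 0.06 (n = 2) in each group, and the 4 groups did not overlap, a pattern of 1 of the 8 genes and of 1.42% of all genes. Knockout lay above wild-type within each segment, and descending lay above ascending within each genotype (lower in ascending wild-type aorta for 14.1% of all genes). The averaged change was 0.39 (SE 0.16), with an adjusted p of 0.413, and the segment difference, ascending minus descending, was -0.67 (SE 0.23) in wild-type and -0.49 (SE 0.23) in the knockout. None of these passed. The pooled standard deviation of Serpinf1 between replicates was 0.0477, and the limma standard error also draws on the spread of all other genes.

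**Figure D1:**
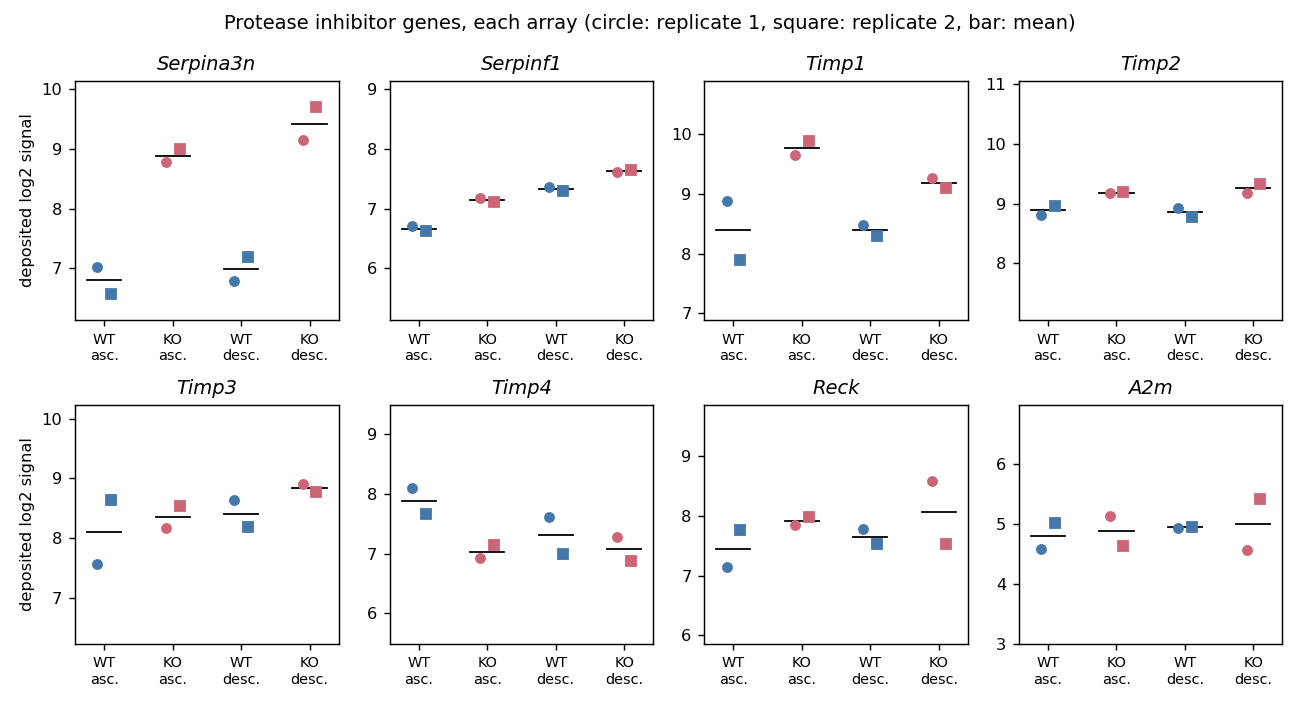
Deposited log2 signal (vertical axis, the same span of 4 units in every panel) of the 8 measured inhibitor genes in wild-type (WT, blue) and knockout (KO, red) ascending (asc.) and descending (desc.) aorta. Each symbol is 1 array of 8 pooled pups and each bar a group mean. Serpina3n, Timp1 and Timp2 separate the genotypes completely, Serpina3n by the widest gap. Timp1 is highest in knockout ascending aorta, and Timp4 is highest in wild-type ascending aorta.

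Timp1, the TIMP most readily induced by cytokines and growth factors, had a log2 signal of 8.88 and 7.89 in wild-type ascending and 8.48 and 8.30 in wild-type descending aorta. In the knockout it was 9.65 and 9.88 in the ascending and 9.26 and 9.10 in the descending aorta. All knockout arrays lay above all wild-type arrays, and both knockout ascending arrays lay above both knockout descending ones. The averaged change was 1.08 (SE 0.24), or 2.12-fold, with a limma adjusted p of 0.170, so Timp1 was not called. It was 139th by unadjusted p (0.00109) among the 22180 genes.

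The change of Timp1 was 1.38 (SE 0.33) in the ascending and 0.79 (SE 0.33) in the descending aorta. The difference between segments was 0.59 (95% confidence interval -0.47 to 1.64), which includes 0, and it was 1.08 and 0.09 without wild-type ascending replicate 1 and 2. The wild-type ascending arrays were 0.99 apart, and the result followed them. Without wild-type ascending replicate 1 the averaged change was 1.33 and was called (adjusted p = 0.0425), and the ascending change was 1.87. Without wild-type ascending replicate 2 the averaged change was 0.84 (adjusted p = 0.146) and the ascending change was 0.88.

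Timp2 inhibits metalloproteinases and, together with the membrane protease Mmp14, also takes part in the activation of Mmp2. Its log2 signal was 8.81 and 8.96 in wild-type ascending, 8.92 and 8.78 in wild-type descending, 9.17 and 9.19 in knockout ascending and 9.18 and 9.32 in knockout descending aorta. All 4 knockout arrays lay above all 4 wild-type arrays, by a small margin. The averaged change was 0.35 (SE 0.17), with a 95% confidence interval of -0.03 to 0.73 and an adjusted p of 0.467.

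Timp3 showed no separation in the ascending aorta, where wild-type had 7.57 and 8.64 and the knockout 8.16 and 8.53. In the descending aorta wild-type had 8.63 and 8.19 and the knockout 8.90 and 8.78. The wild-type ascending replicates were farther apart than any pair of group means, and the averaged change was 0.34 (SE 0.26, adjusted p = 0.637). Omission of wild-type ascending replicate 1 gave 0.07, and omission of replicate 2 of that group gave 0.61. Without both narrow wild-type arrays the averaged change was 0.49, and the ascending change went from 0.24 to 0.78.

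Timp4, the TIMP with the narrowest tissue range and one known from heart, muscle and fat, was the single inhibitor with a lower averaged value in the knockout. Its log2 signal was 8.10 and 7.67 in wild-type ascending aorta against 6.93 and 7.14 in knockout ascending aorta, and these groups did not overlap, as for 18.3% of all genes in that direction. In the descending aorta it was 7.61 and 7.003 in wild-type and 7.27 and 6.88 in the knockout, which did overlap. The change was -0.85 (SE 0.30, adjusted p = 0.482) in the ascending and -0.23 (SE 0.30) in the descending aorta, and -0.54 (SE 0.22, adjusted p = 0.396) over both. None was called, and the difference between segments was -0.62 (95% confidence interval -1.59 to 0.34), and -0.40 without wild-type ascending replicate 1 or -0.32 without wild-type descending replicate 2. In wild-type the ascending aorta was above the descending by 0.58 (SE 0.30, adjusted p = 0.823) without overlap, as for 15.9% of all genes. That difference was 0.36 without wild-type ascending replicate 1, 0.88 without descending replicate 1 and 0.28 without descending replicate 2.

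Skeletal muscle markers, like Timp4, were lower in knockout than in wild-type ascending aorta. In the descending aorta, where Timp4 overlapped between the genotypes, these markers were higher in the knockout. Their mean log2 signal was 7.90 to 9.17 in wild-type ascending aorta, 5.94 to 6.95 in knockout ascending, 5.51 to 6.04 in wild-type descending and 6.26 to 6.67 in knockout descending aorta, and 6 of 6 were lower in knockout ascending aorta (median -2.03) and 6 of 6 higher in knockout descending aorta (median 0.68). In knockout ascending aorta endothelial markers were lower as well, in 7 of 7 (6.33 to 6.63 against 7.17 to 7.53). Adipocyte markers were also lower there, in 6 of 6 (5.77 to 5.78 against 6.17 to 6.65). In knockout descending aorta 6 of 6 adipocyte markers were lower (6.39 to 6.48 against 7.24 to 8.29, median -0.97). In wild-type 6 of 6 adipocyte markers were higher in the descending aorta, where Timp4 was lower. The lowest mean signal of any single gene in these lists was 4.81, for a skeletal muscle marker, below the median gene of each array (4.98 to 5.08). Cardiomyocyte markers, from a tissue known for Timp4, had higher values in the knockout: 7.62 to 7.84 against 7.11 to 7.36 in the ascending and 8.59 to 8.83 against 6.95 to 7.81 in the descending aorta. The part of these tissues in the values of Timp4 was not tested. In whole tissue, fewer cells of a type and less RNA per cell cannot be told apart.

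Reck had 7.14 and 7.76 in wild-type ascending, 7.85 and 7.99 in knockout ascending, 7.79 and 7.52 in wild-type descending and 8.58 and 7.53 in knockout descending aorta. The knockout descending replicates were 1.05 apart, and the averaged change was 0.44 (SE 0.26, adjusted p = 0.545). It was 0.17 without knockout descending replicate 1, 0.70 without replicate 2 of that group and 0.28 without wild-type ascending replicate 1. A2m had signals between 4.57 and 5.43 on all arrays with every pair of groups compared here overlapping. Its averaged change was 0.07 (SE 0.24), with a 95% confidence interval of -0.47 to 0.60.

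**Figure D2:**
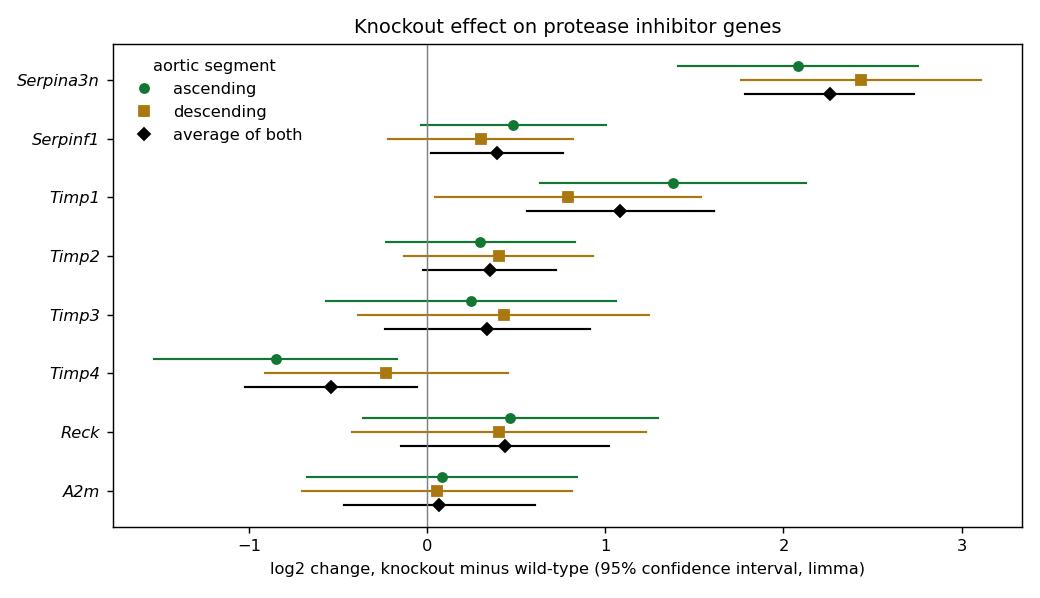
Log2 change, knockout minus wild-type (horizontal axis), of each measured inhibitor gene in the ascending aorta (green circles), the descending aorta (ochre squares) and the average of both (black diamonds). Bars are 95% confidence intervals from limma, not adjusted for the number of genes. The interval of Serpina3n lies farthest from 0, Timp1 follows, and Timp4 lies below 0 in the ascending aorta and over both segments.

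Over both segments 7 of the 8 genes had a change above 0, against 49.8% of all genes, and the median was 0.37 against -0.00 for all genes. Brightness has to be read beside this count. Apart from A2m, the inhibitor genes lay among the brightest 10% of genes, and of those 2218 bright genes 80.1% had a change above 0, with a median of 0.24. Brightness here is the mean over all 8 arrays, and by wild-type arrays alone Serpina3n and Serpinf1 lay at percentiles 88.4 and 89.4, outside that set. Timp2, Timp3 and Reck, with changes between 0.34 and 0.44, had the direction of most bright genes, and none of them was called. Serpina3n and Timp1 exceeded a change of 1, as 0.640% of all genes did. An unadjusted p under 0.05 was reached by Serpina3n, Serpinf1 and Timp1 upwards (7.57% of all genes) and by Timp4 downwards (3.83% of all genes).

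Within segments the picture was alike for most of the genes. In the ascending aorta the arrays did not overlap and knockout was higher for Serpina3n, Serpinf1, Timp1, Timp2 and Reck, 5 of 8 genes against 21.5% of all genes and 47.5% of the bright ones. In the descending aorta this held for Serpina3n, Serpinf1, Timp1, Timp2 and Timp3, 5 of 8 against 21.6% of all genes and 39.6% of the bright ones. In both segments it held for 4 genes, against 7.81% of all and 24.9% of bright genes. For all 4 knockout arrays above all 4 wild-type arrays, 4.76% of all genes, the share of bright genes was not computed. No inhibitor gene was called by limma in either segment, where 0.00% and 0.00451% of all genes were called. An unadjusted p under 0.05 was reached by 3 of the 8 in the ascending (8.90% of all genes) and 2 in the descending aorta (5.95%).

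**Figure D3:**
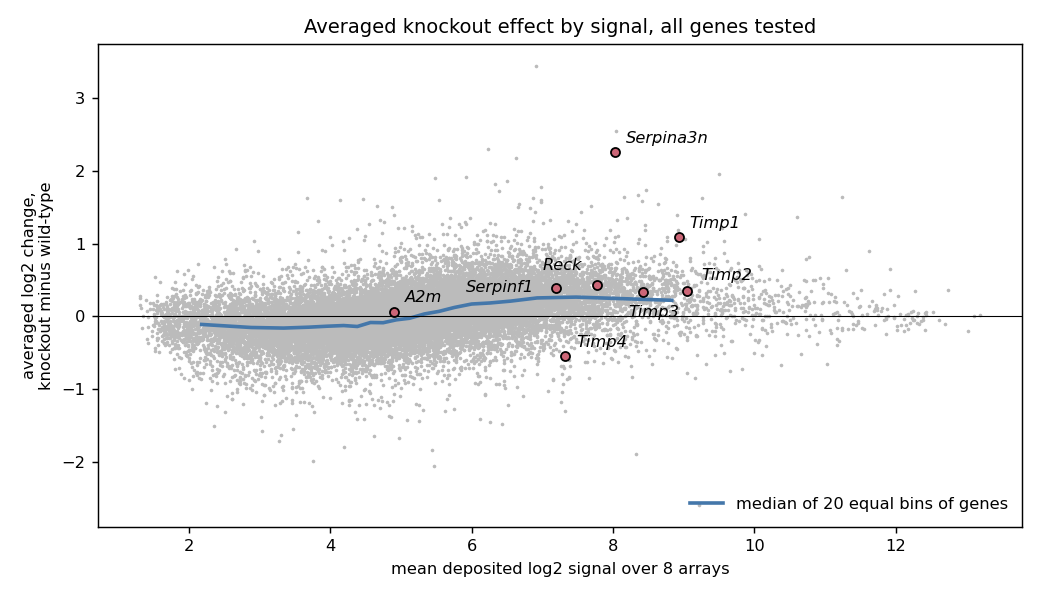
Averaged log2 change, knockout minus wild-type (vertical axis), against the mean log2 signal over 8 arrays (horizontal axis) for all 22180 genes (grey points). The blue line joins medians of 20 equal bins of genes and the red points are the inhibitor genes. The line runs above 0 at high signal, Timp2, Timp3, Serpinf1 and Reck lie near it, Serpina3n and Timp1 lie above it and Timp4 below it.

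Between the segments no inhibitor gene was called in either genotype (0.00902% of all genes in wild-type and 0.00% in the knockout), and none was called in the test of whether the effect differed by segment (0.00%). An unadjusted p under 0.05 was reached by Serpinf1 in wild-type (6.19% of all genes), and by 0 of the 8 in the knockout (4.04%) and in the test of the effect by segment (3.30%). In wild-type, Serpina3n differed by -0.18 (SE 0.30) and Timp1 by -0.00093 (SE 0.33), ascending minus descending. The knockout gave -0.54 (SE 0.30) for Serpina3n, -0.49 (SE 0.36) for Timp3 and 0.59 (SE 0.33) for Timp1. In the knockout the ascending arrays lay above the descending ones for Timp1 (18.3% of all genes) and below them for Serpina3n, Serpinf1 and Timp3 (20.8%). The highest group was thus knockout ascending aorta for Timp1 and knockout descending aorta for Serpina3n, but the differences between these neighbours in order did not pass.

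Timp1, Timp3 and Timp4 are nested genes: in the RefSeq annotation Timp1 lies within Syn1, Timp3 within Syn3 and Timp4 within Syn2, genes of synaptic vesicle proteins. The averaged changes of the hosts were -0.09 (SE 0.18) for Syn1, 0.00 (SE 0.25) for Syn3 and -0.21 (SE 0.19) for Syn2. None was called.

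The other inhibitors were read from lists of related genes. Of 52 other serpins 18 had an averaged change above 0 and 34 below, with a median of -0.09, and none was called. Their signals were not matched to those of the inhibitor genes, most of which lay among the brightest 10% of genes. Among them, Serpinh1, a collagen chaperone with a serpin fold, stood at 0.63 (SE 0.19, adjusted p = 0.310), Serpinb9e at -0.63 (SE 0.40) and Serpina1d at 1.13 (SE 0.79). With an unadjusted p under 0.05, 2 serpins were higher and 1 lower. Of 29 inhibitors of other families 14 were above 0 and none was called. Cast, the inhibitor of calpains, stood at 0.58 (SE 0.19), Crim1 at 0.57 (SE 0.24) and Pi15 at -0.54 (SE 0.24).

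The family of A2m held a further called gene. Cd109, a membrane-anchored relative of A2m that binds TGF-beta, rose by 1.90 (SE 0.22, adjusted p = 0.0202) over both segments. The call was lost in 6 of the 8 fits with 1 array left out, namely each that omitted a knockout array or a wild-type descending array, where the adjusted p was 0.104 to 0.206. It was lost as well with all rows tested (0.276) and without both narrow wild-type arrays (0.0717), while the change stayed between 1.66 and 2.05. Its log2 signal was 4.89, 4.29, 4.67 and 4.31 on the wild-type arrays and 6.63, 7.20, 6.12 and 5.80 on the knockout arrays, ascending first. The complement protein gene C4b, which shares the reactive thioester fold, stood at 1.28 (SE 0.21, adjusted p = 0.0820). Pzp, the closest relative of A2m in the list, stood at 0.46 (SE 0.33). Of 6 measured genes of this family 4 were above 0 and 1 was called.

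The proteases these inhibitors act on were examined the same way. Of 46 metalloproteinases 31 were above 0, with a median of 0.17, and 11 had an unadjusted p under 0.05 upwards and 0 downwards. None was called. Adamts8 stood at 1.13 (SE 0.19, adjusted p = 0.0892), Adam9 at 0.84 (SE 0.21) and Adam19 at 0.81 (SE 0.25). Of 31 serine proteases and their receptors 18 were above 0, with a median of 0.08, and 9 had an unadjusted p under 0.05 upwards and 0 downwards. None was called here either. Plaur, the receptor that holds urokinase at the cell surface, stood at 1.21 (SE 0.17, adjusted p = 0.0540), the thrombin receptor F2r at 1.07 (SE 0.22) and the protease-like Prss35 at 1.03 (SE 0.17). Over all genes 7.57% had an unadjusted p under 0.05 upwards and 3.83% downwards. The upward shift given above was read for the brightest 10% of genes and was not computed at the signals of these lists.

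Acute phase and cytokine response genes, the group to which Serpina3n is usually assigned, had 20 of 25 members above 0 and a median of 0.36. None was called, and 8 were higher and 1 lower at an unadjusted p under 0.05. Saa3, a serum amyloid protein made outside the liver, stood at 2.17 (SE 0.39, adjusted p = 0.111). Fga stood at 1.50 (SE 0.58), and Osmr, the receptor of oncostatin M, at 1.44 (SE 0.27, adjusted p = 0.132). On the knockout arrays Saa3 ranged from 5.89 to 9.50 and on the wild-type arrays from 3.87 to 6.57, so the genotypes overlapped for Saa3 across segments but not for Serpina3n.

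**Figure D4:**
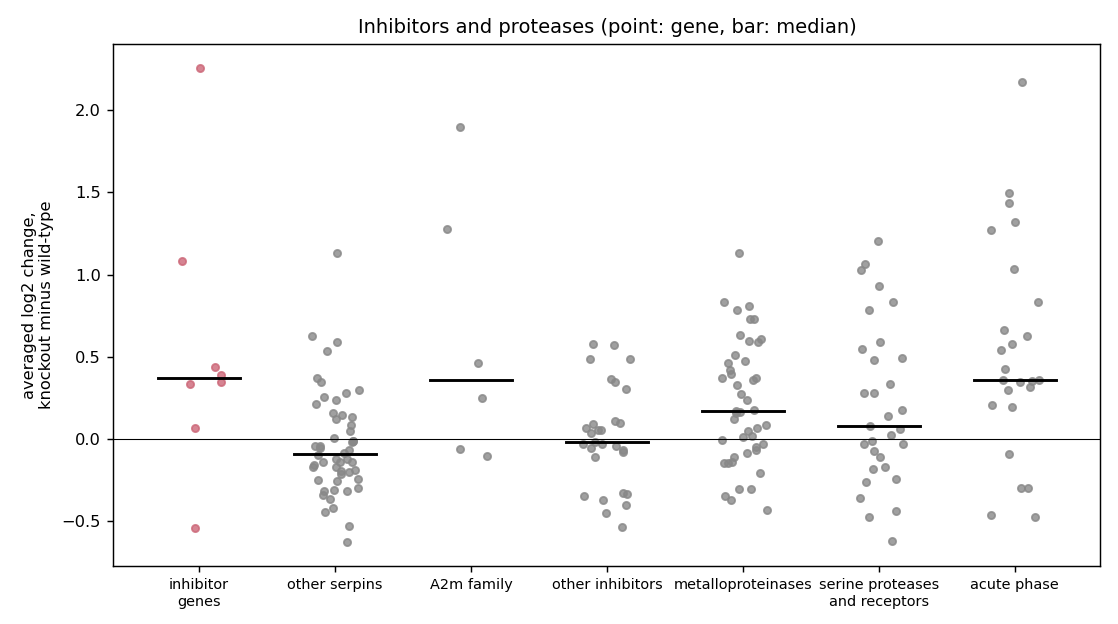
Averaged log2 change, knockout minus wild-type (vertical axis), of the 8 measured inhibitor genes (red) and of genes in 6 related lists (grey). Each point is a gene, and bars are medians: 0.37 for the inhibitor genes, -0.09 for the other serpins, 0.17 for metalloproteinases and 0.36 for acute phase genes. Signal was not matched between the lists.

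Myeloid and cardiomyocyte markers, like Serpina3n and Timp1, were higher in the knockout over both segments. Of 7 smooth muscle markers 6 were higher and 1 lower, with a median of 0.23. Their array means were 9.68 to 9.83 in knockout against 9.46 to 9.57 in wild-type ascending aorta. In the descending aorta these means were 9.53 to 9.55 against 9.21 to 9.33. Of 6 fibroblast markers 5 were higher and 1 lower (median 0.22), and their array means overlapped between genotypes in each segment. The mean log2 signal of the myeloid markers was 6.47 to 6.52 in wild-type ascending, 7.36 to 7.50 in knockout ascending, 6.77 to 7.03 in wild-type descending and 7.32 to 7.66 in knockout descending aorta. All 7 myeloid markers were higher in the knockout in each segment, with medians of 1.14 and 0.57, and the lowest mean signal of a single marker was 5.88. Of the 6 cardiomyocyte markers 5 were higher in the knockout in each segment and 6 over both. Their medians were 0.37 in the ascending and 1.48 in the descending aorta, and their array means are given beside Timp4. The change of Serpina3n was also larger in the descending aorta, but that of Timp1 was smaller there. The median of the myeloid markers was larger in the ascending aorta, as was the change of Timp1 but not that of Serpina3n. The order of the segments was not resolved for either gene. The part of any of these marker lists in the rise of Serpina3n and in the values of Timp1 was not tested.

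Across the 8 arrays Serpina3n had a Pearson correlation of 0.91 with Timp2, 0.80 with Timp1, 0.66 with Serpinf1 and -0.70 with Timp4. The points share the 4 groups, so these values mostly restate the group means. Among 11089 genes above the median signal, those most like Serpina3n by Pearson correlation were Gnptab (0.97), Ppme1 (0.97) and Fat1 (0.97). For Timp1 they were Pcbp4 (0.98), Sh3rf1 (0.98) and Igfbp2 (0.97). For Serpinf1 they were Smim15, F3 and Piezo2, between 0.98 and 0.99, and for Timp4 Acr, Paqr6 and Srpk3, between 0.96 and 0.98.

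**Figure D5:**
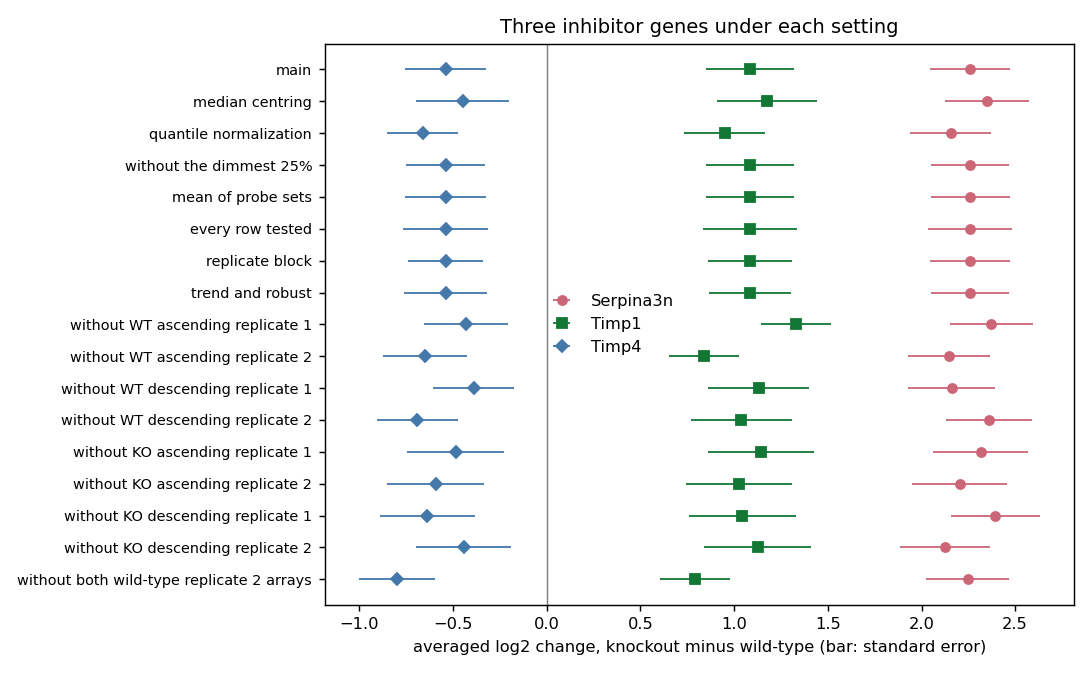
Averaged log2 change, knockout minus wild-type (horizontal axis), of Serpina3n (red circles), Timp1 (green squares) and Timp4 (blue diamonds) in the fit as reported (main) and under 16 other settings (vertical axis). Bars are standard errors. Serpina3n stays between 2.12 and 2.39, Timp1 between 0.79 and 1.33 and Timp4 between -0.80 and -0.39.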

How the data were processed

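Per the labels' protocols, RNA of each pool was amplified and carried a biotin label. The table deposited by the authors holds 1 log2 value per probe set and array. The submitters' processing notes name RMA and Affymetrix Expression Console. Their versions and a genome build were not given in the sources used here. Differences of dim genes are compressed by RMA.

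Of 41345 rows, 23521 had 1 gene symbol in the platform annotation and 1814 several. The row with the highest mean was kept per gene, which left 22180 genes. limma 3.58.1 in R 4.3.3 fitted a mean per group over all arrays (4 residual and 5.52 prior degrees of freedom). Calls used a Benjamini-Hochberg adjusted p under 0.05. The procedure was tested on simulated independent normal values with known shifts, which held no narrow arrays and no shared pups.

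The genes, lists, motifs and alternatives were chosen with earlier results of these data known. All measured inhibitor genes were named. From each related list, called genes and the 3 with the largest averaged change were named. The genes Lrp1 and Mmp2 are background only. Serpina3 copies and array ranges of Cd109 and Saa3 were added after values were seen. For Serpina3n and each inhibitor with an unadjusted p under 0.05, the 3 most correlated genes were named. Erythroid markers were listed but 0 of 4 were analysed here, and mast cell, cardiomyocyte and nerve markers had averaged medians of -0.25, 0.93 and 0.13. Promoters came from RefSeq (GRCm38.p6), and 7 of 8 genes matched. Figures used matplotlib 3.10.9 in Python 3.11.15.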

Additional observations from a re-analysis of the deposited data

How the results depend on the processing

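The alternatives were centring arrays on their medians, quantile normalization, a filter on the dimmest 25% of genes, averaged probe sets, all rows of the table, a block for the replicate number, limma's trend and robust options, each array left out, and both narrow wild-type arrays left out. Of 36 single changes of inhibitor genes that were followed, 28 kept their direction in all 16 settings. Followed were all knockout effects, but only some genes in each comparison between segments, and some of those left out were near 0. The dim filter, averaged probe sets, all rows, the replicate block and the trend and robust options leave the size of a change as it was. They could therefore not reverse it. A knockout effect within a segment was likewise fixed when an array of the other segment was left out. The count of inhibitor genes called over both segments was 1 as reported, 0 with all rows, 0 to 2 with 1 array left out, and 1 in the other settings. In the descending aorta it was 0, but 1 with trend and robust options (Serpina3n, adjusted p = 0.0401). With the replicate block the averaged change of Serpina3n had an adjusted p of 0.0192, and no call of an inhibitor gene differed. The labels do not say that equal replicate numbers share pups. Deviations of equally numbered ascending and descending arrays correlated across genes at 0.29 in wild-type and at -0.02 in the knockout. Between genotypes the values were -0.08 to 0.12. Both narrow arrays are replicate 2 of wild-type, and their part in the 0.29 was not tested. The block is a shift shared by all 4 groups, so it does not model shared pups within a genotype. Whether the segments share pups was thus not settled, and the arrays were treated as unpaired because the labels do not pair them. Median centring moved the median descending change of all genes from 0.03 to 0.14.

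Of the changes that crossed 0, leaving out single arrays gave -0.14 to 0.28 for A2m averaged, -0.17 to 0.33 ascending and -0.37 to 0.48 descending. It gave -0.29 to 0.78 for Timp3 ascending, -0.53 to 0.0736 for Timp4 descending and -0.12 to 0.93 for Reck descending. For the segment difference in wild-type it gave -0.41 to 0.0415 for Serpina3n and -0.50 to 0.49 for Timp1. That of Timp1 was 0.0245 with median centring, 0.0948 after quantile normalization and 0.40 without both narrow arrays, where that of Serpina3n was 0.24. None of these was called as reported, and the cause was not tested.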
